A study of Mus musculus with 15 samples.

Results

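The gene expression of mammary tissue was described in 8 vehicle mice, of the 15 mice in a study of the flame retardant BDE-47. The genes described here were those with a level above 1 CPM (reads per 1000000 mapped reads) in every one of the 8 mice. This held for 3299 of 52526 genes, 6.28% of the genes listed, and these 3299 genes are called members below. They were chosen by the measured levels, and they were ranked by the mean and by the standard deviation (SD) of log2(CPM) over the mice, so the ranks are a description and carry no test. The BDE-47 mice entered no value.

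The 8 mice were female nude mice (nu/nu, Crl:NU, homozygous for the Foxn1 nu allele), a strain without a functional thymus and therefore short of mature T cells, and this allele was shared by every mouse of the study. The vehicle was PEG300 with 1% DMSO, delivered without BDE-47 for 16 weeks from subcutaneous osmotic mini-pumps that were first implanted after 8 weeks of age and replaced midway. The paper reports a detectable BDE-47 signal in the mammary tissue of vehicle mice, significantly lower than in dosed mice. The tissue was the left 4th mammary gland of each mouse, sequenced with a QuantSeq 3′ kit, which gives 1 read per captured transcript end. A level in CPM was therefore compared between genes without a correction for gene length. Some animals of the study may have carried a xenograft in this region, which the labels do not assign to single mice and which was not analysed here. Each replicate was 1 mouse, so the spread reported is the spread between mice together with that of sampling and library preparation.

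The mouse mammary gland is a tree of epithelial ducts in a fat pad. Luminal epithelial cells line the ducts, contractile myoepithelial cells surround them, and adipocytes, fibroblasts, vessels and macrophages form the stroma. In the 4th gland of the mouse a lymph node lies inside the fat pad, and outside pregnancy the milk genes are largely silent.

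Vehicle replicates 6 and 8 stood apart from the other 6 mice before any gene was ranked. The correlation of log2(CPM) across the 3299 members was 0.564 to 0.755 between the other 6 mice, 0.633 between replicates 6 and 8, and 0.353 to 0.478 between either of these and one of the others, where genes are not independent replicates. In replicates 6 and 8 the summed level of 16 adipocyte genes was 1133 and 2248 CPM, against 19187 to 58579 CPM in the other 6 mice. The summed level of 8 B cell genes was 1118 and 3005 CPM, against 4.4 to 99.9 CPM. The 8 T cell genes summed to 651 and 359 CPM in these libraries and to between 0 and 10.9 CPM in the others, and Cd3d, Cd3g, Cd8a and Lck were listed at 0 in all of the other 6 mice. The fat and lymphocyte genes thus moved in opposite directions in the same 2 libraries, and the part of either cell type in the results was not tested, nor was whether these samples held more of the lymph node. In bulk tissue, fewer cells of a type and less RNA per cell cannot be told apart. The main results that rest on these libraries are given with and without them.

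**Figure D1:**
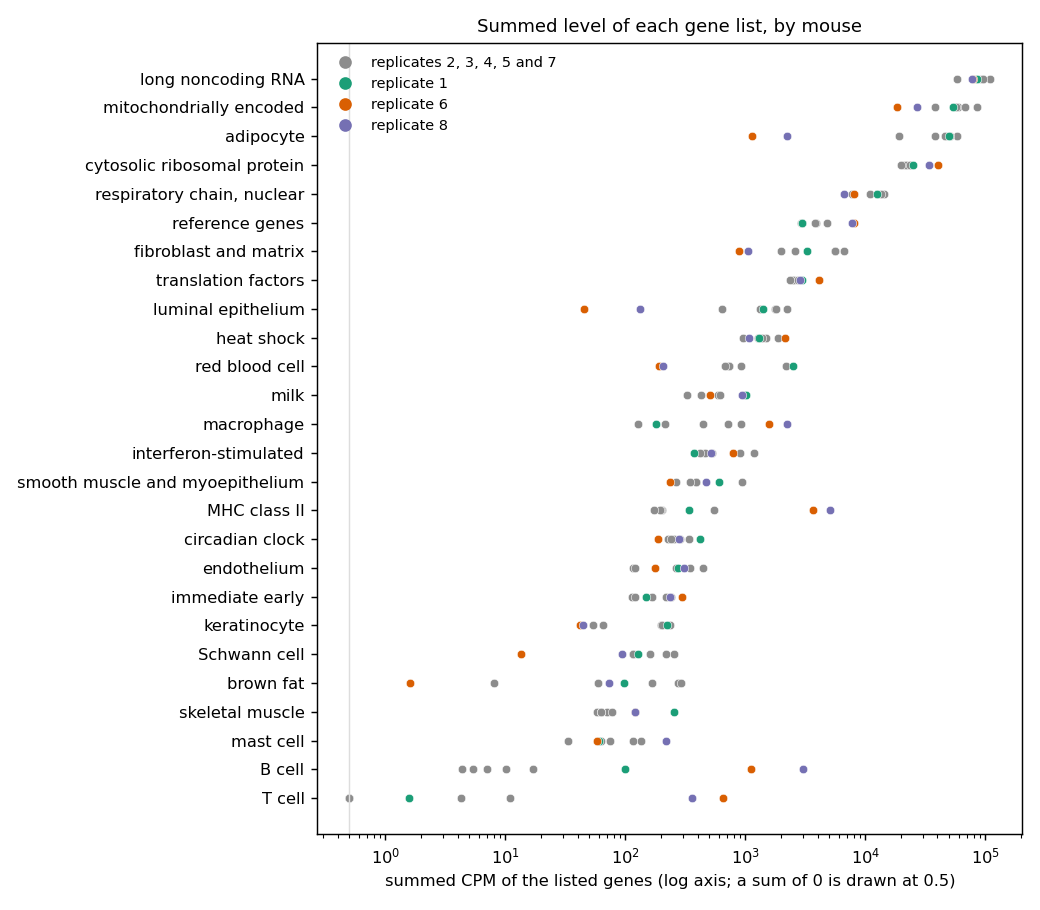
Summed CPM of each gene list (log axis, 1 point per vehicle mouse, coloured for replicates 1, 6 and 8). Replicates 6 and 8 lie apart from the other mice in the adipocyte, luminal epithelium, MHC class II, B cell and T cell lists, and replicate 1 lies highest in the skeletal muscle list at 256 CPM.

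The libraries held 11965760 to 16513596 mapped reads. Between 52.0% and 62.3% of these lay on listed genes, and members took 73.2% to 84.5% of the listed reads, with the lowest shares, 73.2% and 75.6%, in replicates 6 and 8. Between 7469 and 11484 genes were above 1 CPM per mouse, the highest number in replicate 1. A further 1583 genes were above the limit in 7 of the 8 mice, and 3990 genes were above it in all of the 6 mice without replicates 6 and 8. Of the members, 3171 were protein-coding, 39 were pseudogenes, 6 were transcribed pseudogenes and 13 were long noncoding RNAs in the RefSeq annotation.

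To show the sequences next to the levels, the promoters of 6 members are printed for GRCm38.p6 from RefSeq, from 250 bases before to 50 bases after the start, 5′ to 3′ on the strand of the gene. Capitals mark each C that is followed by G, the pair that is dense in the promoters of widely expressed genes. Eef2 and Tmed9 had the lowest SD of all members, Flg was among the steadiest at a low level, Ccl6 and Pdhb were among the most variable, and Cfd was among the most abundant. Their windows lie at chr10:81176381-81176680 (plus strand, Eef2), chr13:55592885-55593184 (plus, Tmed9), chr3:93273296-93273595 (plus, Flg), chr11:83593038-83593337 (minus, Ccl6), chr14:8172943-8173242 (minus, Pdhb) and chr10:79890603-79890902 (plus, Cfd).
Eef2: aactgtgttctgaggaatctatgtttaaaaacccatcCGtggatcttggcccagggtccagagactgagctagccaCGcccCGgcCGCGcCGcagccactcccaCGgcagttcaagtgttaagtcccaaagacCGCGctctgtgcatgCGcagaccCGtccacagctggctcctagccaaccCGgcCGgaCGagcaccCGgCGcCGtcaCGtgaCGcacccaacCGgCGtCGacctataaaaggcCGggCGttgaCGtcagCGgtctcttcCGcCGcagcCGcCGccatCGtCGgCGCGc
Tmed9: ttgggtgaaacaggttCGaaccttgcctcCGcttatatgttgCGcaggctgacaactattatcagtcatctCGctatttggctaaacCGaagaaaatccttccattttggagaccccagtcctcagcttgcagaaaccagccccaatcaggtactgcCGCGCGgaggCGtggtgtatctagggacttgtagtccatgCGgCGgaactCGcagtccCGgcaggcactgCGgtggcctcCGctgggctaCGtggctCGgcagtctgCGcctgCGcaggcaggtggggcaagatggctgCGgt
Flg: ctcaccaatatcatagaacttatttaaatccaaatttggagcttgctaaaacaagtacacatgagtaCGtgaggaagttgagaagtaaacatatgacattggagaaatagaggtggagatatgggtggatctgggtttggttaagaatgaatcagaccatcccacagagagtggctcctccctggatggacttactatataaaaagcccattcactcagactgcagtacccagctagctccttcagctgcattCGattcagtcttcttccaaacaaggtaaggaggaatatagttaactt
Ccl6: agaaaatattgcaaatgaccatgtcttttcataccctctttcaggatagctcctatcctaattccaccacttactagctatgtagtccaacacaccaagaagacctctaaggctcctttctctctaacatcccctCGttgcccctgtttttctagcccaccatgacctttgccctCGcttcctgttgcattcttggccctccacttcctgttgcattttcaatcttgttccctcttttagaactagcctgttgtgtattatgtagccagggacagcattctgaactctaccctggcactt
Pdhb: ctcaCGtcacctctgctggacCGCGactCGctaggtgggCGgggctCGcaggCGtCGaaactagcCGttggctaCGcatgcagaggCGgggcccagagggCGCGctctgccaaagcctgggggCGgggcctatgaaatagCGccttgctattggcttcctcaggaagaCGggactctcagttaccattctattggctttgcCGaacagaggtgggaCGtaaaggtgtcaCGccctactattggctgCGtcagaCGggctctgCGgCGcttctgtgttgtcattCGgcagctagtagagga
Cfd: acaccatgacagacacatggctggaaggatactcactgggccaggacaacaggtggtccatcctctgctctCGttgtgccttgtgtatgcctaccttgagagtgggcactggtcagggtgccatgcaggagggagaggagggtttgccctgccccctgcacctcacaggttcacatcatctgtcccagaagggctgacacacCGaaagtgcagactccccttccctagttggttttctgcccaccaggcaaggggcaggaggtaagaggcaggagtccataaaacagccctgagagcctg

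The promoters of Eef2 and Tmed9 hold 34 and 20 such CG pairs, those of Ccl6 and Cfd hold 2 each, and that of Flg also holds 2 although Flg was steady, while Pdhb has 24 although its level varied. Over the 100 steadiest members, 78 had a promoter entry and the median number of CG pairs was 22. Over the 100 most variable, 74 had an entry and the median was 9.5, against 22 over the 2586 members with an entry and 7 over all 27025 promoters in the table. This order was not seen when the 3990 genes above 1 CPM in all of the other 6 mice were ranked over those mice. The median was then 21.5 in the 100 steadiest and 23 in the 100 most variable. That ranking left out replicates 6 and 8 and also took in genes that are not members, and the effects of these changes were not separated. The letters TATAAA on the gene's strand, 20 to 40 bases before the start, were present in 2.6% of the steadiest and 4.1% of the most variable promoters, against 1.6% of all members and 2.1% of all promoters. A match to these letters is a description of the window and not a binding site. Fabp4, Krt1 and Igkc, described below, had no entry.

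By mean log2(CPM), the most abundant transcripts of the gland came from the mitochondrial genome, from fat genes and from the noncoding RNA gene Gm42418. The immunoglobulin gene Igkc, described below, ranked 273 by this mean. Its mean on the linear scale was 5278 CPM, above Car3 at 5073 and mt-Nd2 at 3956, with the highest level in replicate 8. Gm42418, a gene model that overlaps ribosomal RNA sequence so that its reads may not be its own, had a mean of 16.35 ± 0.28 log2(CPM) (SD, n = 8) and held 5.62% to 10.8% of all reads that mapped. Its level was 16.34, 16.73, 15.78, 16.45, 16.50, 16.24, 16.52 and 16.21 in replicates 1 to 8. It was therefore both the highest member and one of narrow spread, with replicates 6 and 8 inside the range of the other mice.

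Mitochondrially encoded transcripts filled the next ranks. The gene mt-Nd4, for a subunit of respiratory complex I, was at 13.91, 13.23, 14.06, 14.00, 14.59, 12.16, 14.25 and 12.80 log2(CPM) in replicates 1 to 8 (mean 13.62 ± 0.82, n = 8). Replicates 6 and 8 were the lowest for mt-Nd4, and leaving them out reduced the SD to 0.45. The gene mt-Cytb, for a subunit of complex III, had a mean of 13.44 ± 0.86, mt-Nd1 one of 13.10 ± 0.63, mt-Nd2 one of 11.79 ± 0.76, and the ribosomal RNAs mt-Rnr2 and mt-Rnr1 had means of 12.49 ± 0.62 and 11.48 ± 0.70 (n = 8). All 8 members encoded in mitochondria were lowest in replicate 6 or 8. Together, mitochondrially encoded genes took 5.09% ± 2.22 of the mapped reads (n = 8) and 6.04% ± 1.59 without these mice (n = 6).

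Genes of the fat cell were the other abundant group, and their levels split the mice. Fabp4, the adipocyte fatty acid-binding protein (chromosome 3, 10204342 to 10208616 in GRCm38.p6), was at 13.70, 12.28, 14.01, 13.92, 13.78, 7.92, 13.30 and 9.49 log2(CPM) in replicates 1 to 8, with a mean of 12.30 ± 2.32. Cfd, the secreted protease adipsin, was at 13.38, 12.18, 13.52, 13.62, 13.16, 7.25, 12.53 and 8.17, with a mean of 11.73 ± 2.54. For both genes replicates 6 and 8 were far below all other mice, and replicate 2 was the lowest of the rest. Without replicates 6 and 8 the SD was 0.64 for Fabp4 and 0.58 for Cfd (n = 6). Car3 (carbonic anhydrase 3, 11.45 ± 2.21), Scd1 (stearoyl-CoA desaturase, 11.45 ± 1.91), Lpl (lipoprotein lipase, 10.21 ± 2.15) and Dbi (the acyl-CoA-binding protein, 10.09 ± 1.47) completed the fat and lipid genes among the 20 highest members. Each of these 4 was also lowest in the 2 libraries.

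The remaining genes of the highest 20 belonged to the cytoskeleton, the ribosome and general cell functions. Tmsb4x (thymosin beta 4, which binds actin monomers) and Actb (beta-actin) had means of 11.64 ± 0.73 and 10.97 ± 0.90, and both were highest in replicates 6 and 8. S100a6, a calcium-binding protein, had a mean of 10.48 ± 0.71. The ribosomal proteins Rps21 and Rps14 had means of 10.23 ± 0.35 and 10.18 ± 0.37, H2-K1, a classical MHC class I chain, had one of 10.20 ± 0.61, and Malat1, a nuclear noncoding RNA, had one of 10.10 ± 0.26 (n = 8 for each). Of the 20 highest members, 18 were also among the 20 highest without replicates 6 and 8, when Fasn and Glul took the places of H2-K1 and Rps14. The 10 highest members took 15.4% ± 3.44 of all mapped reads (n = 8, 10.2% to 20.2%), and the same genes took 17.0% ± 2.01 in the 6 other mice. Between 121 genes in replicate 5 and 464 genes in replicate 6 were enough to hold 50% of the reads on genes above 1 CPM.

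**Figure D2:**
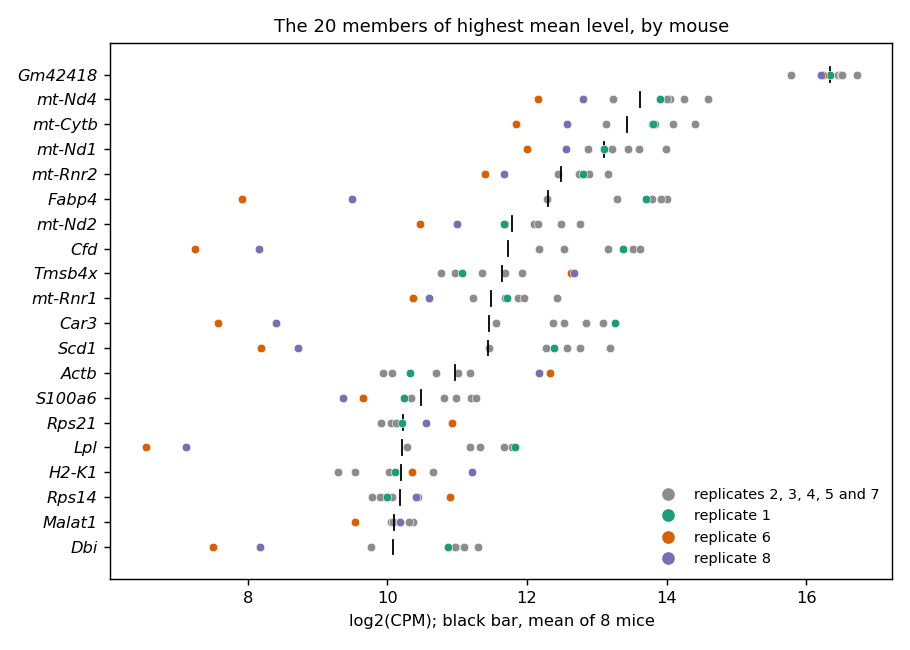
log2(CPM) of the 20 members of highest mean in each vehicle mouse, with the mean as a black bar. Gm42418 is the highest gene at 16.35, and replicates 6 and 8 lie far below the other mice in Fabp4, Cfd, Car3, Scd1, Lpl and Dbi and above them in Tmsb4x and Actb.

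The spread between mice was larger than read counting for nearly every member. The median SD was 0.991 on the log2 scale (range 0.170 to 4.046), and over the same genes it was 0.829 without replicates 6 and 8. Counting of reads alone, at the depth of each mouse, would give a median SD of 0.070, and the observed SD was 14.5 times the counting SD in the median member. Of the 3299 members, 270 had an SD under 0.5, 1625 had one above 1 and 264 one above 2. Without replicates 6 and 8, 607 of the same genes had an SD under 0.5 and 146 had one above 2. The spread fell with level. In 4 bins of members from the highest to the lowest mean, the median SD was 0.671, 0.907, 1.129 and 1.350, while the median counting SD rose only from 0.036 to 0.116.

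**Figure D3:**
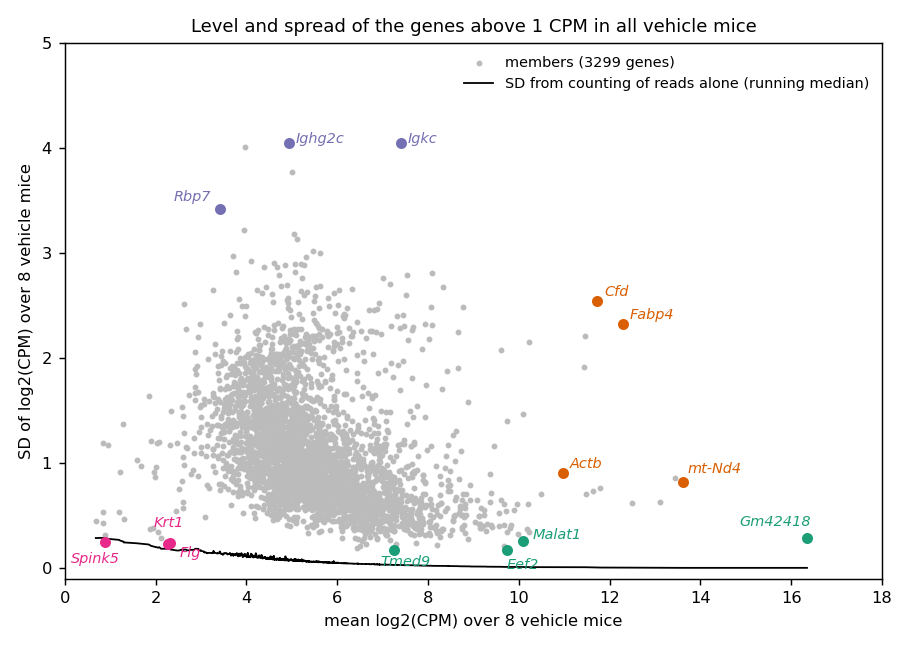
Mean and SD of log2(CPM) over the 8 vehicle mice for the 3299 members, with the SD that counting of reads alone would give as a black line. Most members lie well above the line, Eef2 and Tmed9 have the lowest SD, Igkc and Ighg2c the highest, and Krt1, Flg and Spink5 lie near the line at low level.

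The 15 members of lowest SD were of mixed function. Eef2, the elongation factor that moves the ribosome along the mRNA, was at 9.81, 9.56, 9.80, 9.70, 9.83, 9.99, 9.77 and 9.44 log2(CPM) in replicates 1 to 8 (mean 9.74 ± 0.17). Tmed9, a cargo receptor of the early secretory pathway, was at 6.95, 7.38, 7.37, 7.05, 7.20, 7.31, 7.46 and 7.27 (mean 7.25 ± 0.17). In both genes all mice lay within a single log2 unit, and replicates 6 and 8 showed no common direction. Psma6 (a subunit of the proteasome core, 6.44 ± 0.19), Abhd2 (a lipid hydrolase, 6.50 ± 0.21), Serinc3 (a multipass membrane protein, 9.67 ± 0.21), Uqcrh (a complex III subunit, 8.20 ± 0.22), Atp5h and Atp5j (ATP synthase subunits, 7.29 ± 0.23 and 7.16 ± 0.27), Derl1 (a part of the machinery that removes misfolded proteins from the endoplasmic reticulum, 6.63 ± 0.23), and Dag1 (dystroglycan, a receptor for the basement membrane, 6.56 ± 0.26) were also among the 15 of lowest SD. The exact list turned on the 2 libraries, since only 3 of these 15 genes, Eef2, Serinc3 and Malat1, were among the 15 steadiest when replicates 6 and 8 were left out.

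The 15 also held Malat1 and 3 genes of a different kind, Krt1, Flg and Spink5. They are genes of the cornifying epidermis: Krt1 is a keratin of the upper epidermal layers, Flg encodes filaggrin and Spink5 an inhibitor of skin proteases. Krt1 was at 2.52, 2.47, 2.06, 2.52, 1.95, 2.19, 2.36 and 2.06 log2(CPM) in replicates 1 to 8, Flg at 2.78, 2.32, 2.28, 2.24, 2.15, 2.55, 2.26 and 2.03, and Spink5 at 0.76, 0.92, 0.86, 1.20, 1.25, 0.90, 0.68 and 0.51. All 8 libraries, replicates 6 and 8 included, thus held a low and nearly equal level of these transcripts. There were between 50 and 88 reads of Krt1, 49 and 106 of Flg and 17 and 37 of Spink5. Whether these reads came from skin in the tissue of each mouse was not tested.

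The SD of 12 members was less than 2 times the SD that read counting gives, and these genes were singled out after their values were seen. Of these, 11 belong to the upper layers of the skin (Spink5, Flg2, Krt1, Flg, Lce1a1, Lor, Asprv1, Cst6, Calm4, Dmkn and Krtdap), and Cox6a2 encodes the muscle form of a complex IV subunit. Their means lay between 0.68 and 2.33 log2(CPM). Lor, which encodes loricrin, a main protein of the cornified envelope, had 44 to 102 reads per mouse, and its SD of 0.29 was 1.58 times the counting SD. The SD of Spink5 was 0.890 times the counting SD, the lowest ratio of all members. The ratio was lower at low level in general. The rule also left out genes of low mean that fell under 1 CPM in any mouse, so a low SD is in part set by the rule at this level. Under the same rule, the other 14 of the 26 members with a mean up to that of Flg had a median SD of 1.10 and a median ratio of 4.47. The next members by this ratio were BC100530 at 2.12, Tnnt3 at 3.30 and Krt79 at 3.47. Between 9 and 17 genes met this limit when each mouse was left out in turn, and 9 did without replicates 6 and 8.

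Keratins of the basal layer, which the myoepithelium of the ducts also makes, did not share this evenness. Krt5 was at 5.72, 6.47, 1.71, 2.92, 5.18, 1.25, 5.72 and 0.23 log2(CPM) in replicates 1 to 8 (mean 3.65 ± 2.41), and Krt14 at 5.83, 5.56, 2.26, 4.01, 2.33, 2.19, 5.75 and 1.37 (mean 3.66 ± 1.85). Replicates 1, 2 and 7 were high in both genes and replicates 3, 6 and 8 were low in both. Dsp, the desmosome protein desmoplakin, had an SD of 2.25, whereas Krt10, the partner of Krt1, had a mean of 3.67 ± 0.60 and a high value of 5.07 in replicate 1 only. Of the 10 keratinocyte genes, 8 were members, with a median SD of 0.792 against 0.991 for all members, and 3 of the 8 were above the median of all.

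**Figure D4:**
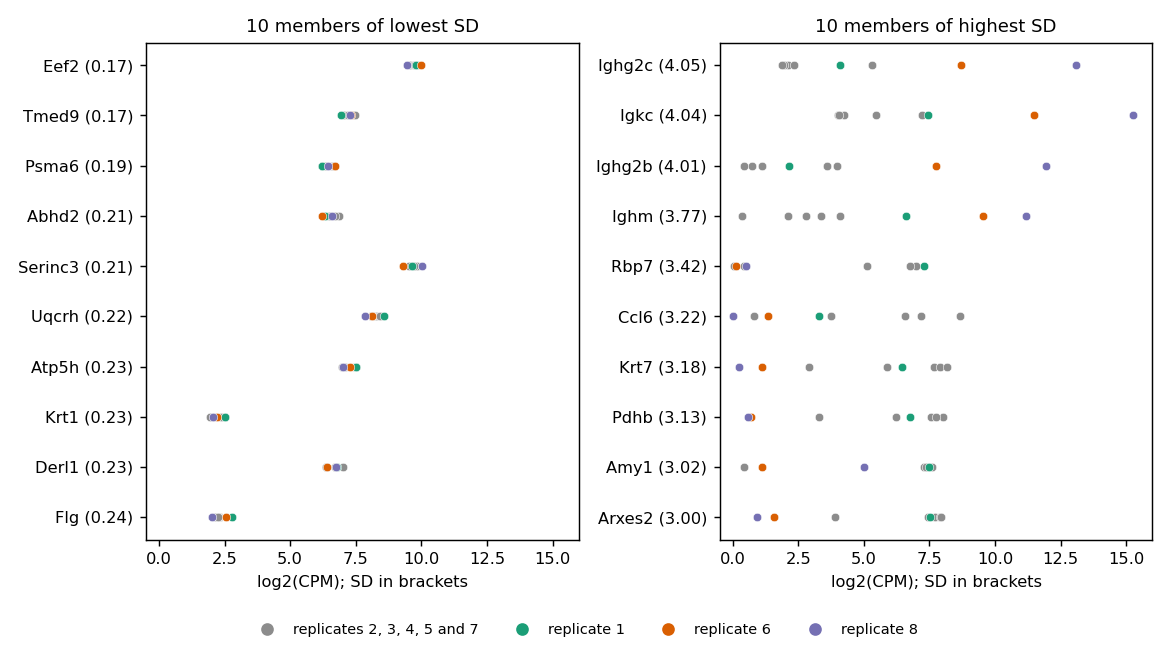
log2(CPM) in each vehicle mouse for the 10 members of lowest SD (left) and the 10 of highest SD (right), with the SD in brackets. The steady genes span about 1 log2 unit or less at any level, while replicates 6 and 8 lie highest in the immunoglobulin genes and at or near the lowest values in most of the other variable genes.

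The 4 most variable members were immunoglobulin genes, the products of B cells and plasma cells. Igkc, the kappa light chain constant region (chromosome 6, 70726435 to 70726754), was at 7.44, 4.26, 7.20, 4.03, 5.47, 11.47, 4.07 and 15.25 log2(CPM) in replicates 1 to 8, with a mean of 7.40 ± 4.04. Ighg2c, an IgG heavy chain constant region, was at 4.11, 2.11, 5.30, 1.95, 1.87, 8.70, 2.34 and 13.10, with a mean of 4.93 ± 4.05. Replicate 8 was highest and replicate 6 next for both. Ighg2b (3.96 ± 4.01) and Ighm, the IgM heavy chain (5.01 ± 3.77), had the same order. Without replicates 6 and 8 the SD was 1.57 for Igkc, 1.42 for Ighg2c, 1.51 for Ighg2b and 2.09 for Ighm, and replicate 1 held the highest level of Igkc and Ighm among the 6 remaining mice. Ighm was the only member of the B cell list of 8 genes, and none of the 8 T cell or 6 mast cell genes was a member.

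Most of the other highly variable genes were lowest in replicates 6 and 8. Of the 264 members with an SD above 2, 183 were lowest in replicate 6 or 8, against 1098 of all 3299 members, 138 had both of these mice below all others and 26 had both above. Over all members, 429 had both below the other 6 mice and 386 had both above. Prkar2b, a regulatory subunit of protein kinase A, was at 0.69 and 0.51 log2(CPM) in replicates 6 and 8 and at 5.82 to 7.30 in the other 6 mice, where its SD was 0.59 instead of 2.89. Krt7, a luminal keratin, was at 1.13 and 0.23 in these mice and at 2.90 to 8.17 in the others, so replicate 3 was low as well. Arxes2 (3.00), Pdhb (3.13), a subunit of pyruvate dehydrogenase, Cited1 (2.96), a transcriptional coregulator, and Prelp (2.90), a matrix proteoglycan, also had SDs near 3 with the lowest value in replicate 6 or 8.

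Of the 15 most variable members, 5 were still among the 15 most variable without these libraries. Rbp7, a retinol-binding protein found in fat and vessels, was at 7.31, 5.12, 7.00, 6.74, 0.04, 0.13, 0.42 and 0.51 log2(CPM) in replicates 1 to 8, with an SD of 3.42, and of 3.35 without replicates 6 and 8. The mice formed 2 sets with nothing between 0.51 and 5.12, and the division did not follow that of replicates 6 and 8. Ccl6, a chemokine made by macrophages and other myeloid cells, was at 3.28, 6.57, 8.67, 7.17, 3.73, 1.33, 0.80 and 0.00, from 12 reads in replicate 8 to the highest level in replicate 3. Amy1, an amylase, was between 7.30 and 7.60 in replicates 1, 3, 4, 5 and 7 and at 5.02 in replicate 8, 1.13 in replicate 6 and 0.43 in replicate 2. Rgcc, a regulator of the cell cycle, was at 6.74, 3.97, 7.54, 6.44, 5.27, 0.13, 0.001 and 2.81 (SD 2.92), and Slc36a2, an amino acid transporter, at 5.85, 0.11, 7.11, 6.46, 5.34, 0.63, 3.96 and 0.12 (SD 2.97). Replicate 6 was low in all 5 genes, and the other low mice differed between them.

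To follow this further, members were counted whose mice were separated by an empty interval of more than 3 log2 units, a limit chosen after the values were seen. There were 275 such members, 8.34% of all. In 205 of them a single mouse lay below the interval and in 57 a pair of mice, which was replicates 6 and 8 in 49. The single low mouse was replicate 6 for 80 genes, 8 for 33, 7 for 30, 5 for 24, 2 for 18, 4 for 13 and 3 for 7, and it was never replicate 1, the mouse with the most genes above 1 CPM. Tnrc6a, a component of the microRNA silencing complex, had the widest interval, 5.81 log2 units, with 20 reads in replicate 7. Eif4a1, the helicase of translation initiation, was at 6.51, 6.03, 6.91, 4.86, 6.16, 6.33, 0.001 and 5.72 log2(CPM) in replicates 1 to 8, and its level in replicate 7 rested on 15 reads. On the log2(CPM + 1) scale, which compresses values near 1 CPM, 159 genes met the same limit.

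Eif4a1 was also one of the members nearest to the limit that defined them. Together with Sh3bgrl3 and Fbxl18, each at 0.001 in replicate 7, it was just inside. Just outside lay G0s2, an inhibitor of fat breakdown that was listed at 0 in replicate 8 although it reached 8.27 in replicate 4, Ctsh, a lysosomal protease listed at 0 in replicate 5, and Atp13a3, a membrane transporter listed at 0 in replicate 8. The means of these 3 genes over 8 mice, with the 0 included, were 6.16, 5.64 and 5.62. The membership of a gene therefore turned on 1 mouse even at moderate level.

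Among lists with 3 or more members, the widest spread lay in luminal epithelium and adipocytes. Of 8 luminal genes, 7 were members, with a median SD of 2.41, and all 7 were lowest in replicate 6 or 8. Krt18, a keratin of simple epithelia, was at 8.75, 8.70, 7.60, 8.39, 9.54, 3.00, 9.22 and 4.40 log2(CPM) in replicates 1 to 8, and Cldn3, a tight junction protein, was at 0.36 and 0.12 in replicates 6 and 8 and at 5.65 to 7.13 in the others. Epcam and Cdh1, adhesion molecules of epithelium, had SDs of 1.41 and 2.04. Of 16 adipocyte genes, 14 were members, with a median SD of 2.36, and all 14 were lowest in replicate 6 or 8. Plin1, the protein that coats the lipid droplet, was at 3.81 and 3.47 in these mice and at 8.11 to 10.12 in the others. Without the 2 libraries the median SD was 0.67 for the luminal and 0.65 for the adipocyte members. Both were below the 0.829 of all members but above the 0.527 of the members in the bin of highest mean. That bin began at 6.23 log2(CPM) and held all adipocyte members, while the median of the luminal means was 6.78. The 3 genes of these lists that were not members were Pparg, the master regulator of fat cells, listed at 0 in replicates 6 and 8, Lep, the hormone leptin, at 0 in replicate 6, and Elf3, an epithelial transcription factor, at 0 in replicates 5, 6 and 8. Of the milk genes, 1 of 8 was a member, Mfge8 (9.08 ± 0.64), which the gland and macrophages also make outside lactation, and Cidea, a lipid droplet protein, was the only member of 7 brown fat genes (4.24 ± 2.65).

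The fibroblast and matrix genes were lower in sum in replicates 6 and 8 as well, by smaller amounts. The 12 fibroblast and matrix genes summed to 888 and 1059 CPM in these mice, against 1994 to 6631 CPM in the others. Of the 12, 11 were members, 9 of them lowest in replicate 6 or 8, with a median SD of 1.21, and of 1.03 without these mice. Col1a1, the main chain of type I collagen, was at 6.42, 9.94, 8.92, 8.52, 4.53, 5.37, 5.89 and 6.80 log2(CPM) in replicates 1 to 8, and Col3a1 at 7.14, 9.78, 9.81, 9.08, 6.56, 6.77, 7.01 and 5.97. In both collagens replicates 2, 3 and 4 were the highest, and in Col1a1 the lowest mouse was replicate 5. The SD of Col1a1 was 1.89 with all mice and 2.07 without replicates 6 and 8, so its spread was not narrower without them. Dcn, a small proteoglycan, had a mean of 8.73 ± 1.12 and Sparc, a collagen-binding protein, one of 9.46 ± 1.16. In smooth muscle and myoepithelium, 5 of 7 genes were members with a median SD of 1.73, and of 1.09 without replicates 6 and 8. The list summed to 237 and 474 CPM in replicates 6 and 8, against 265.7 to 945.5 CPM in the others. The lows lay in different mice: Acta2, smooth muscle actin, was lowest in replicate 8 at 4.88, while Tagln and Des were lowest in replicate 5 at 0.95 and 1.40. Mylk, Tagln and Des were highest in replicate 8. Among 8 endothelial genes, 3 were members (Pecam1, Egfl7 and Cldn5), with SDs of 1.08, 1.14 and 0.89. The endothelial list summed to 176 and 307 CPM in replicates 6 and 8, within the 117 to 448 CPM of the others.

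Genes of antigen presentation and of macrophages were mostly members. All 4 MHC class II genes were members, with a median SD of 2.01 and the highest level in replicate 6 or 8. H2-Eb1, an MHC class II beta chain, was at 6.67, 7.58, 6.26, 6.04, 5.63, 10.50, 5.12 and 11.28 log2(CPM), and Cd74, the invariant chain, was at 8.85 and 9.32 in replicates 6 and 8 and at 4.86 to 6.17 in the others. Without these mice the median SD of the list was 0.77. Of 9 macrophage genes, 6 were members, with a median SD of 1.59. Lyz2, lysozyme of myeloid cells, was at 9.87 and 10.36 in replicates 6 and 8 and at 4.73 to 7.40 in the others. Mrc1, the mannose receptor of tissue macrophages, was at 3.84, 7.36, 7.39, 7.20, 5.53, 6.26, 0.26 and 6.97, and C1qc, a complement chain, at 2.24 in replicate 7 and at 5.09 to 7.18 elsewhere. Replicate 7 was the lowest mouse in 4 of the 6 macrophage members and replicate 8 the highest in 5, and the SD of Mrc1 was 2.82 without replicates 6 and 8 instead of 2.47. Red blood cell genes followed replicates 6 and 8 again: all 4 members were lowest in one of them, and Hbb-bs, a beta globin, was at 4.31 and 5.43 in these mice and at 7.90 to 10.47 in the others. The globin genes are near-identical copies, so their reads may be divided between them.

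Of 12 skeletal muscle genes, 11 were members, at low level, and replicate 1 was the highest in 9 of the 11. The other gene, Mb, was listed at 0 in replicates 3, 5 and 7. Acta1, skeletal muscle actin, was at 6.16, 4.49, 4.28, 5.11, 4.34, 5.22, 4.43 and 5.36 log2(CPM) in replicates 1 to 8. Myl1, a fast muscle myosin light chain, was at 4.56 in replicate 1 and at 0.34 to 1.37 in the other 7 mice. The summed level of the 12 genes was 256 CPM in replicate 1 and 121 CPM in each of replicates 6 and 8. It was 57.8 to 77.8 CPM in the others. Reads of muscle genes were thus found in all 8 libraries and were most abundant in replicate 1. Whether they came from muscle in each sample was not tested. The median SD of the list was 0.867 with all mice and 0.412 without replicate 1. Of the 62 members with a mean under 8 CPM, 8 were on the skeletal muscle list and 4 on the keratinocyte list.

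Housekeeping lists had median SDs below the 0.991 of all members, although the lowest median, 0.39, was that of the 4 long noncoding RNA members. Of 85 cytosolic ribosomal protein genes, 73 were members, with a median SD of 0.52 (0.39 without replicates 6 and 8), and 61 of the 73 were highest in one of these 2 mice, against 1142 of all 3299 members. Rpl19 was the exception in size, with an SD of 1.53 and a level of 1.47 log2(CPM) in replicate 5 against 4.72 to 6.24 in the others. All 12 translation factors were members, with a median SD of 0.60. Of 81 nuclear genes of the respiratory chain, 67 were members, with a median SD of 0.73, and 37 of them were lowest in replicate 6 or 8, against 1098 of all 3299 members. Uqcr11, a complex III subunit, had the widest spread of these, with 1.37 in replicate 8, 4.50 in replicate 6 and 6.13 to 7.64 in the other mice. Uqcrh, of the same complex, was among the steadiest members, so the spread differed within 1 enzyme complex. The means of ribosomal protein and respiratory chain members had medians of 7.87 and 6.90 log2(CPM), against 5.35 for all members. A high level went with a low SD over the members as a whole, and the median SD was 0.671 in the bin of highest mean. The ribosomal protein median of 0.52 lay below this value and the respiratory chain median of 0.73 above it, although not all members of either list lay in that bin.

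**Figure D5:**
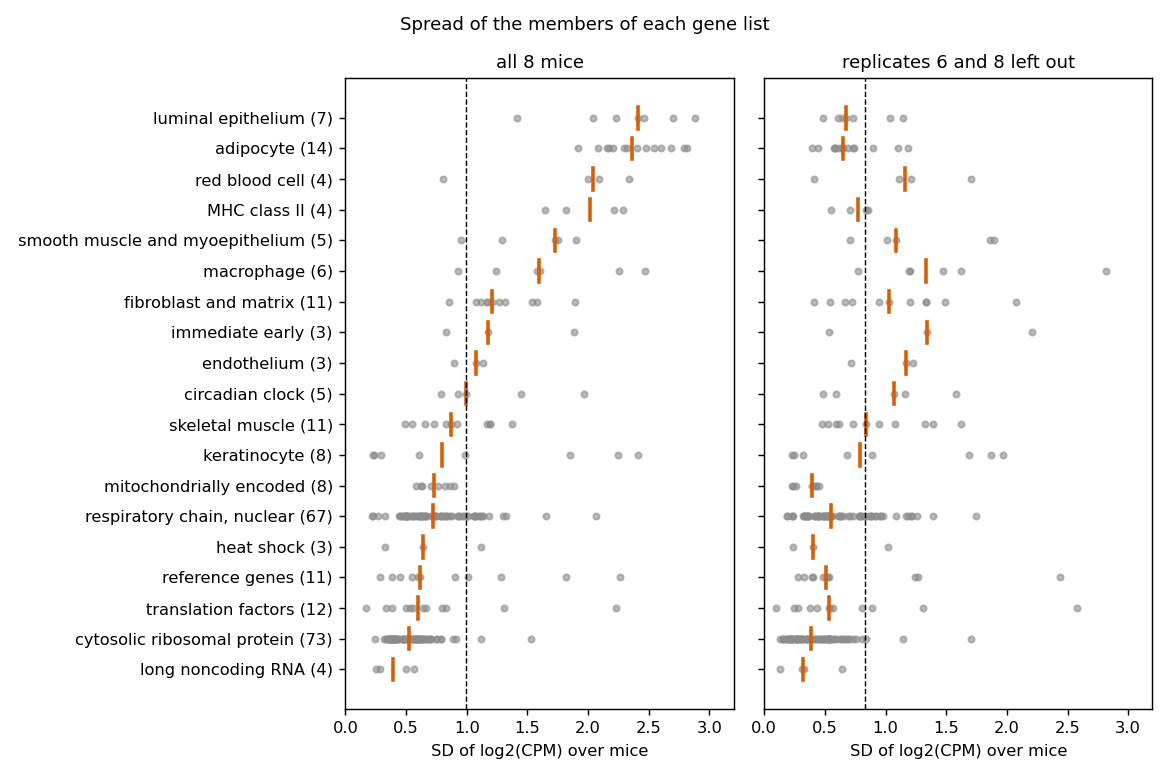
SD of log2(CPM) of each member by gene list, with the number of members in brackets, the list median in orange and the median of all 3299 members as a dashed line, over all 8 mice (left) and without replicates 6 and 8 (right). The luminal and adipocyte medians fall from 2.41 and 2.36 to 0.67 and 0.65, while the ribosomal protein median is low in both panels.

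The genes that are commonly used to scale other measurements were not equally steady. Gapdh, the glycolytic enzyme, was at 6.27, 6.39, 5.80, 6.38, 6.34, 6.12, 5.65 and 5.88 log2(CPM) in replicates 1 to 8 (mean 6.10 ± 0.29), the lowest SD of the 11 reference genes that were members. Rplp0 (7.72 ± 0.39), Polr2a (5.58 ± 0.55), Ywhaz (6.88 ± 0.60) and B2m (9.97 ± 0.61) had wider spreads, and the median SD of the list was 0.61. Actb had an SD of 0.90. Of the 11 members, 7 were highest in replicate 6 or 8, and Actb, Rplp0, Ywhaz and B2m were higher in both than in any other mouse. The list summed to 8026 and 7799 CPM in these mice and to 2891 to 4796 CPM in the others. Gusb, a lysosomal enzyme, was at 1.01, 5.39, 5.78, 6.77, 5.50, 6.92, 1.49 and 3.94, with a mean of 4.60 ± 2.27, so that replicates 1 and 7 were low, and Hprt had an SD of 1.82. Of the 15 reference genes, 4 were not members, and of these Tfrc was listed at 0 in 1 mouse, Pgk1 in 6 and Tbp in 7. Tbp, the TATA-binding protein, is needed in every cell, so a value of 0 here says only that the gene was not above 1 CPM.

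Lists of genes that respond to handling and to time of day were members in part, against 6.28% of all genes and 3299 of the 14589 genes above 1 CPM in any mouse. Of 9 immediate early genes, 3 were members. Junb had a mean of 5.42 ± 0.83, Ier2 had one of 4.59 ± 1.18 and Jun, at 0.49 in replicate 7 and 3.15 to 6.50 elsewhere, had one of 4.46 ± 1.88. Replicate 7 was lowest for Ier2 and Jun. Of 14 circadian clock genes, 5 were members, with a median SD of 1.00. Nr1d1, a repressor within the clock, was at 6.43, 5.00, 4.18, 4.42, 6.35, 0.57, 6.51 and 3.94 log2(CPM), with replicates 1, 5 and 7 at the upper end, and Nr1d2, its close relative, ranged from 4.26 to 7.14 with the highest level in replicate 8. Of 10 heat shock genes, 3 were members, and Hsp90ab1, a cytosolic chaperone, was steady at 9.99 ± 0.32.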

How the data were processed

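The submitters' processing notes name STAR 2.5.3a and the mouse build GRCm38. The files deposited by the authors hold 1 value per gene and mouse, log2(CPM), where CPM is reads per 1000000 mapped reads, with genes under 1 CPM listed at 0. The counting tool is not given in the sources used here. Library depth was recovered from the spacing of low CPM values, which were whole multiples of the value of 1 read in 100% of values (tolerance 0.01 reads). The number of reads behind each level is therefore known. The counting error of these reads does not include the error of library preparation, which was not measured. No replicate numbers were used to pair mice.

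Of 52636 entries, 110 repeated names were dropped. The mean and sample SD of log2(CPM) over the 8 vehicle mice were computed without a pseudocount, with no test, because the members were selected on these values. The SD from counting alone was the root mean of 1/reads over the mice, divided by the natural log of 2. Members, gene lists and settings were chosen with earlier results of these data known. The genes named were the 20 of highest mean, the 15 of lowest and of highest SD, the 2 lowest and 2 highest by SD in each of 4 bins of mean level, up to 4 of highest mean and the 1 of highest SD in each list, and those next to the 1 CPM limit. Others were named after their values were seen, and 3 genes that the rule or a list would name are not reported here. Sums over a list used all its genes above 1 CPM. Of the members, 3236 matched a RefSeq symbol, and 6 carried names turned into dates. Promoters and coordinates came from RefSeq for GRCm38.p6. The BDE-47 files were not used. Calculations used Python 3.11.15, pandas 2.3.3 and numpy 2.4.6, and the SD, depth and outlier steps were tested on simulated data. Alternatives covered scaling, the log scale, the measure of spread, a 10 CPM limit and the mice left out.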

Additional observations from a re-analysis of the deposited data

Results flagged for a closer look

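Values far from those of the other 7 mice were looked for with Dixon's criterion for 8 samples, which divides the gap to the nearest mouse by the whole range of the group. Chance passes about 1 in 20 groups of this kind, and 410 of the 3299 members, 12.4%, passed.

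Replicate 1 was the high mouse in the muscle genes Tnnc2 (5.45 log2(CPM)), Atp2a1 (4.39) and Myl1 (4.56) and in the keratin Krt10 (5.07), and it had the most genes above 1 CPM, 11484. Replicate 6 was the low mouse for Malat1 (9.53), the alpha globin Hba-a2 (1.53), the myelin gene Pmp22 (0.290) and Nr1d1 (0.566), and its summed level of the Schwann cell list was 13.5 CPM, while that of the translation factors was the highest at 4125 CPM. Replicate 7 was low for C1qc (2.24), Eif4a1 (0.001) and Ier2 (1.90). Clock, a core circadian activator, was low in replicate 4 (1.40) and the ribosomal protein gene Rpl19 in replicate 5 (1.47). The causes of these values were not tested.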

How the results depend on the processing

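No paired analysis was possible because the vehicle mice were compared with no other group. At least 10 CPM in all mice was reached by 1833 genes. As a share of the reads on genes above 1 CPM in each mouse, with the same members, the 10 highest took 26.8%. The 50 steadiest members shared 12 genes with the 50 by median absolute deviation, 7 with those ranked relative to a running median of SD over level, 18 with those without replicates 6 and 8, and 25 to 38 when each mouse was left out. The 50 most variable shared 13, 32, 7 and 20 to 49 genes under the same settings, and 3 with those of at least 10 CPM. The 20 was without replicate 8. On the added log2(CPM + 1) scale, 159 members had a gap over 3 log2 units.

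The number of members, the share of the 10 highest, the median SD of all members and the number of genes near counting error were otherwise within 1.5 times, or 1 SD, of those given. The median SD was 0.757 to 1.028 over all settings and the number of members 3304 to 3625 with 1 mouse left out. Of the 139 named genes, 63 had an SD that moved by over 1.5 times without replicates 6 and 8, as had 11 of 24 list medians, among them red blood cell (1.158) and heat shock (0.399), and none had under other scaling. Leaving out 1 mouse did so in 33 of 1112 cases, and for the median SD of the Schwann cell list without replicate 6 (1.035). Depth was 11965760 to 16513596 reads, so values near 1 CPM rest on 12 to 17 reads, and genes listed at 0 are known only to lie under 1 CPM.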
